A study of Homo sapiens with 7 samples.

Results

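The genes described here are 46 human genes that encode enzymes which add or remove methyl and acetyl groups on histones, read through the chromatin loops of their promoters in 3 cancer cell lines. Members were fixed by name: 7 genes grouped as H3K4 methyltransferases, 4 H3K36 methyltransferase genes and 6 genes for methylation of H3K27, H3K9 or H3K79. The rest were 12 demethylase genes, 9 acetyltransferase genes and 8 deacetylase genes. The members are 46 of the 20162 protein-coding genes annotated on GRCh37. A loop belonged to a gene when 1 of its anchors lay over a 500 bp window centred on any annotated start site of the gene. This gave 340 of 163530 loops in Ishikawa, 312 of 42027 in T-47D and 804 of 149226 in LNCaP. Each member is counted once below, whether or not it had a loop.

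H3K27ac HiChIP joins DNA ends that lie close together in the nucleus and then pulls down fragments carrying acetylated lysine 27 of histone H3, a mark of active promoters and enhancers. The series holds 7 samples and 1 loop list per cell line. Ishikawa, an endometrial adenocarcinoma line, was sampled with DMSO in 2 samples and with 10 nM 17β-estradiol for 1 h in 2 samples. T-47D, a breast cancer line, gave 1 sample and LNCaP, a prostate carcinoma line, gave 2 samples, with no treatment named for either. The Ishikawa list pools both treatments in 4 sorted parts that no label ties to a sample, so estradiol and DMSO were not compared. With 1 list per line there is no replicate error: all comparisons below are descriptions of these lists, without a test, and their intervals cover counting error only, since amplified read pairs are not independent molecules. Ishikawa chromatin was also cut with DpnII and sheared with a probe. The other lines were cut with MboI and sheared in a Covaris instrument. In each list nearly all anchors had both edges at the same sequence, GATC (100% in Ishikawa, 99.99% in T-47D cells and 100% in LNCaP). Per the study's methods, read length and sequencing depth also differed between Ishikawa and the other lines. Preparation, sequencing and cell line thus cannot be told apart.

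Histone methyltransferases of the KMT2 and SETD1 families mark H3K4 at enhancers and promoters, EZH1 and EZH2 are the catalytic subunits of Polycomb repressive complex 2, and the KDM families reverse these marks. EP300 and CREBBP are the main writers of H3K27 acetylation, the mark the antibody selects, and deacetylases of the HDAC and sirtuin classes remove acetyl groups. Most of these enzymes are expressed in nearly all cell types, and many of their genes are recurrently mutated in cancers of the endometrium, breast and prostate.

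The lists differed in size. They summed to 1040329 read pairs in Ishikawa, 351260 in T-47D cells and 1805322 in LNCaP, and no listed loop had fewer than 3 read pairs. A value of 0 means that no loop of the gene is listed, not that contact was absent: the filter on read pairs and false discovery rate acted on each loop, so unlisted loops of a gene may sum to more than 3 read pairs. Median anchor width was 5.10 kb, 2.61 kb and 3.23 kb in the same order. Marker genes followed the labels: KLK3, KLK2 and TMPRSS2 ranked highest in LNCaP, GATA3 and TRPS1 in T-47D, and PAX8 and SOX17 in Ishikawa.

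Nearly all of the enzyme promoters were looped. In Ishikawa 40 of 46 members had at least 1 promoter loop (57.3% of all protein-coding genes did), in T-47D 41 (49.2%) and in LNCaP 44 (58.1%). A loop to a distal anchor, that is an anchor over no protein-coding start site, was found for 37, 35 and 42 members (52.5%, 34.7% and 52.4% of all genes). Loops were present in all 3 lists for 36 members (33.4% of all genes), and no member lacked a loop in every list (24.1% of all genes did). The members without a loop were EZH2, SETDB1, KAT2A, HDAC3, HDAC4 and HDAC9 in Ishikawa, DOT1L, KDM1A, KAT6B, HDAC2 and HDAC4 in T-47D, and KDM1A and HDAC9 in LNCaP. KDM1A, which encodes the flavin-dependent H3K4 demethylase LSD1, was the least looped: its whole record was 1 Ishikawa loop of 3 read pairs.

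These genes are also long and have many start sites, and this moved with their coverage. Members had a median of 15.5 annotated start sites and a length of 81.1 kb, against 5 start sites and 27.2 kb for all protein-coding genes. Among the 2097 protein-coding genes with at least as many start sites as the median member, 81.7% were looped in Ishikawa, 73.0% in T-47D cells and 85.5% in LNCaP. Ranked by read pairs among all protein-coding genes of a list, the median member stood at percentile 71.4 in Ishikawa, 77.6 in T-47D cells and 76.1 in LNCaP, while the median of the genes rich in start sites was 71.8, 68.2 and 71.2. In Ishikawa the median member therefore did not rank above the median gene with many start sites. Read pairs per looped member had a median of 29, 30 and 110, against 21, 23 and 72 for all looped genes.

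**Figure D1:**
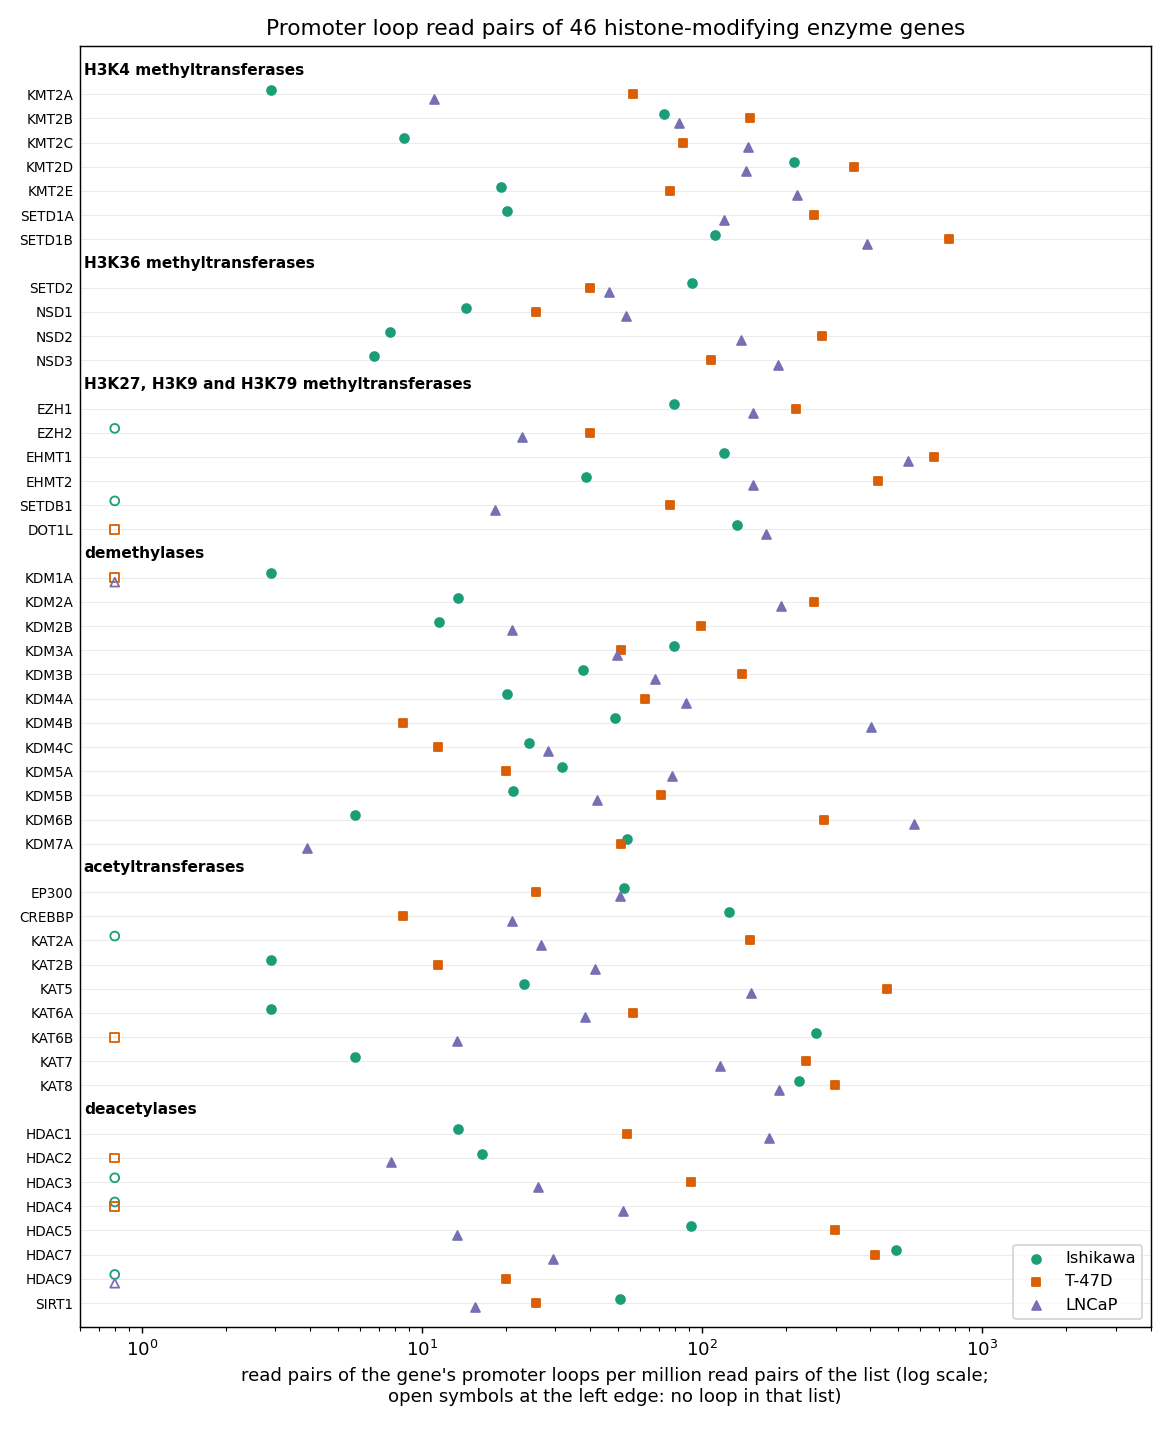
Promoter loop read pairs of each of the 46 genes per 1000000 read pairs of the list (log axis), grouped by enzyme class, with 1 symbol per cell line and open symbols for genes with no loop in a list. HDAC7 and KAT6B have their largest values in Ishikawa, SETD1B in T-47D and KDM6B in LNCaP.

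All 7 genes grouped as H3K4 methyltransferases were looped in every list. SETD1B, which encodes a catalytic subunit of the complex that deposits H3K4 trimethylation at promoters, had 116 read pairs in Ishikawa, 269 in T-47D cells and 701 in LNCaP. Scaled to 1000000 read pairs per list these are 111.5, 765.8 and 388.3, and SETD1B was the member with the most read pairs in T-47D. Its promoter anchor in all 3 lists also held the start of RHOF, so the loops cannot be assigned to 1 of these genes. The strongest T-47D loop of the group joined SETD1B to RHOF with 129 read pairs, and the strongest in LNCaP joined SETD1B to PSMD9 over 89.5 kb with 209.

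SETD1B also had a distal contact that recurred in all lists. An anchor inside the gene, 6.88 kb downstream of the start at chr12:122247018-122252040 in T-47D, was joined to the promoter by 22 read pairs there. Overlapping loops had up to 70 read pairs in LNCaP and 7 in Ishikawa. A second shared anchor lay about 117 kb upstream, with 7 read pairs in Ishikawa, 8 in T-47D cells and 19 in LNCaP.

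KMT2D and KMT2C encode the enzymes that monomethylate H3K4 at enhancers. KMT2D had 222 read pairs in Ishikawa, 123 in T-47D cells and 260 in LNCaP, among the top 5 members of the Ishikawa list. In Ishikawa 122 of these went to distal anchors, against 14 in T-47D and 39 in LNCaP. A loop to the RHEBL1 promoter had 27 read pairs in T-47D and 36 in LNCaP, and overlapped an Ishikawa loop of 6, while a loop to TUBA1B had 19 and 34 and overlapped one of 8. KMT2C had 9, 30 and 263 read pairs. Its T-47D promoter loop to chr7:152159868-152163131, 27.8 kb upstream, had 20 read pairs and an overlapping LNCaP loop had 41, whereas no Ishikawa loop overlapped it. Parts of KMT2C have close copies elsewhere in the genome, so its counts at internal start sites are less certain.

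KMT2E, a relative with a SET domain, had 20, 27 and 394 read pairs. In LNCaP 360 of these went to 24 distal anchors, the highest number of distal anchors for any member in any list. The strongest, with 120 read pairs, lay 31.1 kb upstream of the start in that anchor, within the annotated gene, at chr7:104617288-104629714, and an overlapping T-47D loop had 20. SETD1A had 21, 88 and 217 read pairs, KMT2B 76, 52 and 149, and KMT2A 3, 20 and 20.

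EHMT1, which encodes GLP, an H3K9 mono- and dimethyltransferase, was strongly looped in all lists, with 125 read pairs in Ishikawa, 236 in T-47D cells and 984 in LNCaP. It has 52 start sites, and 6 LNCaP promoter anchors held 1 or more of them. At the RefSeq promoter of EHMT1 there were 18, 162 and 555 read pairs, so its Ishikawa value came mostly from other start sites. Its main partner was the neighbouring ARRDC1 promoter, with 90 read pairs in 1 T-47D loop and 148 in 1 LNCaP loop. The LNCaP anchor over the EHMT1 gene start also held a start of ARRDC1, so its loops cannot be assigned to 1 of these genes. The leading distal loop in LNCaP, with 72 read pairs, ended 9.82 kb inside the gene at chr9:140522836-140525794. EHMT2, the gene of its partner G9a, had 40, 150 and 275 read pairs, and in every list a promoter anchor of EHMT2 also held starts of C2 and ZBTB12.

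Of the Polycomb enzymes, EZH1 had 83, 76 and 274 read pairs and EZH2 had 0, 14 and 41. At the RefSeq promoter of EZH1 there were 3, 76 and 205 read pairs, so its Ishikawa value came mostly from other start sites. DOT1L, the H3K79 methyltransferase gene of the set, had 139 in Ishikawa, 0 in T-47D cells and 306 in LNCaP. A contact 24.1 kb inside DOT1L with 27 read pairs in Ishikawa overlapped an LNCaP loop of 35. SETDB1, a gene of an enzyme for H3K9 trimethylation, had 0, 27 and 33 read pairs.

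NSD1, NSD2 and NSD3 encode enzymes for H3K36 dimethylation and SETD2 the one for trimethylation. NSD2 had 8, 94 and 250 read pairs, NSD3 7, 38 and 337, and NSD1 15, 9 and 97. SETD2 was highest in Ishikawa once scaled, with 92.3 in Ishikawa, 39.9 in T-47D cells and 46.5 in LNCaP, from 96, 14 and 84 read pairs. None of the 96 Ishikawa read pairs was at its RefSeq promoter, against all 14 in T-47D and all 84 in LNCaP, so Ishikawa was the lowest there. NSD2 was joined to LETM1 (41 read pairs in a T-47D loop) and NSD3 to PLPP5 (141 in an LNCaP loop).

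Among the demethylase genes KDM6B and KDM4B had the largest spread, and both peaked in LNCaP. KDM6B, which encodes the H3K27 demethylase JMJD3, had 6 read pairs in Ishikawa, 96 in T-47D cells and 1037 in LNCaP, the most unscaled read pairs of any member. Scaled to 1000000 read pairs per list, the LNCaP value of 574.4 is below those of SETD1B and EHMT1 in T-47D. Its LNCaP loops ran mainly downstream to promoters, with 466 read pairs to the anchor of CYB5D1, NAA38 and TMEM88 and 116 to that of CHD3 and NAA38. The loop to CYB5D1 and NAA38 recurred with 34 read pairs in T-47D and only 3 in Ishikawa. A distal LNCaP anchor 216 kb downstream at chr17:7956499-7972787 had 66 read pairs and no overlapping loop in the other lists.

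KDM4B, which encodes an H3K9 and H3K36 demethylase, had 51 read pairs in Ishikawa, 3 in T-47D cells and 727 in LNCaP. A single LNCaP loop of 253 read pairs, the strongest distal loop of any member, joined its start to an anchor 22.8 kb inside the gene at chr19:4988076-4995904. The best overlapping Ishikawa loop had 6 read pairs and T-47D had none. Of the 727 LNCaP read pairs, 583 went to 12 distal anchors.

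The start of each gene that RefSeq uses lay in a promoter anchor in LNCaP alone for both. In LNCaP 528 of the 727 KDM4B read pairs and all 1037 of KDM6B came from the anchor over the RefSeq promoter. The Ishikawa and T-47D loops of both genes came from anchors over other annotated start sites downstream. The promoters are printed from 250 bases before to 50 after the RefSeq start, each on the plus strand (KDM4B at chr19:4968874-4969173, KDM6B at chr17:7737285-7737584, GRCh37, placed by exact match), because this stretch lay under an anchor in LNCaP alone. The KDM6B anchor of LNCaP is wider and also spans the start sites under the Ishikawa and T-47D anchors, so its read pairs cannot be given to the RefSeq start. For KDM4B, 2 further LNCaP anchors lay over starts inside the gene. CpG dinucleotides are in capitals.
KDM4B: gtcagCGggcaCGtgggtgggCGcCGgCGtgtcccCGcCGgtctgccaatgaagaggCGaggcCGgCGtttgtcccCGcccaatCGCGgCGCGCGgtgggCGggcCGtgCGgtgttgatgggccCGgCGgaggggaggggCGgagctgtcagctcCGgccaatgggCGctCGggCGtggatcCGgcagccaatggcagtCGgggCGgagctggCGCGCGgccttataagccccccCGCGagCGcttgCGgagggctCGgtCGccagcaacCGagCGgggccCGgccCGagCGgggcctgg
KDM6B: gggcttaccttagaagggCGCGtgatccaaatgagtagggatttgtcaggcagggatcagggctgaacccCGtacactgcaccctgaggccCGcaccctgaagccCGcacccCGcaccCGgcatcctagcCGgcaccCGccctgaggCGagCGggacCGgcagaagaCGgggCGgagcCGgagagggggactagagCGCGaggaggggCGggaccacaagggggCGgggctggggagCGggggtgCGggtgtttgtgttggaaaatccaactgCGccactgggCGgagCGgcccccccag
The KDM4B stretch holds 43 CpGs and the KDM6B stretch 24.

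KDM7A, an H3K9 and H3K27 demethylase gene, was lowest in LNCaP, with 56 read pairs in Ishikawa, 18 in T-47D cells and 7 in LNCaP. Scaled to list totals, Ishikawa and T-47D were near each other, with 53.8 and 51.2, against 3.88 in LNCaP. The scaled Ishikawa to T-47D ratio was 1.05 (95% interval 0.608 to 1.90). In Ishikawa 33 of the 56 read pairs were at the RefSeq promoter, against all 18 in T-47D and all 7 in LNCaP. The T-47D loop of KDM7A to chr7:139931074-139933866, 55.7 kb upstream, had 7 read pairs and overlapped loops of 4 in LNCaP and 3 in Ishikawa. Of the other members, the H3K36 demethylase genes KDM2A and KDM2B had 14, 88 and 347 and 12, 35 and 38 read pairs. The H3K9 demethylase genes KDM3A and KDM3B had 83, 18 and 90 and 39, 49 and 123. In Ishikawa only 3 of the KDM3A and 6 of the KDM3B read pairs were at the RefSeq promoter. KDM4A, a relative of KDM4B, had 21, 22 and 159, and KDM4C 25, 4 and 51. KDM5A and KDM5B, whose products remove H3K4 trimethylation, had 33, 7 and 141 and 22, 25 and 76. KDM2A had an intragenic contact 7.91 kb from a start in T-47D that was present in all lists, with 3 read pairs in Ishikawa, 17 in T-47D cells and 36 in LNCaP.

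The paralogues EP300 and CREBBP were looped in all lists. EP300 had 55, 9 and 92 read pairs. CREBBP had 130, 3 and 38, and the Ishikawa value came mainly from internal starts: 31 of the 130 read pairs were at the RefSeq promoter. There, Ishikawa and LNCaP were near each other, with 31 and 38.

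KAT6B, which encodes the MYST family enzyme MORF, had 265 read pairs in Ishikawa, 0 in T-47D cells and 24 in LNCaP. In Ishikawa 248 of these went to 21 distal anchors, led by 44 read pairs to chr10:76602919-76611857, 20.5 kb inside the gene. The 4 Ishikawa parts held between 12 and 103 read pairs, so the gene was looped in each. Its surroundings were also dense in Ishikawa: all loops within 1 Mb had 5.40 times as many scaled read pairs in Ishikawa as in LNCaP and 3.15 times as many as in T-47D. The part of this segment in the KAT6B value was not tested beyond these ratios.

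KAT8, the H4K16 acetyltransferase gene, had 232, 105 and 339 read pairs and one of the most repeated sets of contacts. Its loops to the PRSS36 promoter came from 2 promoter anchors and summed to 28 read pairs in Ishikawa, 26 in T-47D cells and 44 in LNCaP. The upstream anchor had 21, 8 and 19 of these and the downstream anchor 7, 18 and 25. In Ishikawa a KAT8 promoter anchor also held a start of BCKDK. KAT5, which encodes TIP60, had 24, 161 and 271, with 34 read pairs in a T-47D loop of 147 kb to CFL1 and MUS81. KAT7 (HBO1) had 6, 83 and 209 and KAT6A (MOZ) 3, 20 and 69. KAT2A and KAT2B, the genes of GCN5 and PCAF, had 0, 52 and 48 and 3, 4 and 75.

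Among the deacetylase genes, the class IIa members HDAC7 and HDAC9 held the highest and the lowest totals over the 3 lists. HDAC7 had 514 read pairs in Ishikawa, the highest of any member there, 146 in T-47D and 53 in LNCaP. Ishikawa loops of HDAC7 reached into the neighbouring VDR gene, which encodes the vitamin D receptor: 56 read pairs joined the promoter to chr12:48233716-48241747, 23.3 kb upstream. No T-47D or LNCaP loop overlapped that contact. Anchors over VDR start sites were reached by HDAC7 loops of 23, 6 and 3 read pairs in Ishikawa and by 1 loop of 6 read pairs in LNCaP. In T-47D the leading distal loop, with 36 read pairs, ended 8.65 kb upstream at chr12:48221963-48224131. Contacts of HDAC7 with anchors over an SLC48A1 start were listed in all lines and summed to 139 read pairs in Ishikawa, 28 in T-47D cells and 11 in LNCaP.

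HDAC5 had 95, 105 and 24 read pairs. Its strongest distal loop ended within the gene in Ishikawa (40 read pairs, chr17:42172404-42182619) and in T-47D (34 read pairs, chr17:42180098-42181464), and these loops overlapped. LNCaP had no distal HDAC5 loop. HDAC4 had 94 read pairs in LNCaP and none elsewhere, and HDAC9 had 7 in T-47D and none elsewhere. In LNCaP 39 HDAC4 read pairs came from an anchor over the GENCODE gene start (chr2:240316961-240324911) and 63 from an anchor over starts inside the gene, with loops between both anchors counted in each.

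Among class I genes HDAC1 had 14, 19 and 313 read pairs, HDAC2 17, 0 and 14, and HDAC3 0, 32 and 47. SIRT1, an NAD-dependent deacetylase gene, had 53, 9 and 28. The promoters of HDAC7 (chr12:48213637-48213936, minus strand) and HDAC9 (chr7:18535122-18535421, plus strand) are printed in the same way, since HDAC7 was anchored at this stretch in all 3 lists and HDAC9 in T-47D alone.
HDAC7: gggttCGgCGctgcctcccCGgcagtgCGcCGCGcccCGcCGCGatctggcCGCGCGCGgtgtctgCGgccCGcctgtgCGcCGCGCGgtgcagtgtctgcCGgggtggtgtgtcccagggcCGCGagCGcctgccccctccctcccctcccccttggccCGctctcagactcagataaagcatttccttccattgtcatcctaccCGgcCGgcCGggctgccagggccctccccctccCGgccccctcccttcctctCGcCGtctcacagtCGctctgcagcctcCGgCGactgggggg
HDAC9: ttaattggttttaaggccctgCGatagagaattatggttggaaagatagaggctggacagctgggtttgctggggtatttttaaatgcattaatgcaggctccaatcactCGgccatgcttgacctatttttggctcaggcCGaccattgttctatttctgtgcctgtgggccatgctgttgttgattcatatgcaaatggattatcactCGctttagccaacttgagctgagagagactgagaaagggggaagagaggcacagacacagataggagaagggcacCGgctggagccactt
HDAC7 holds 33 CpGs in 300 bases and HDAC9 holds 5. Measured at the GENCODE gene start, 37 of 46 members (80.4%) had a CpG-rich promoter, taken as GC of 50% or more and a CpG ratio of 0.6 or more. The share was 54.9% of all protein-coding genes, 62.4% of those looped in Ishikawa, 72.3% in T-47D cells and 71.1% in LNCaP. At that start HDAC9 was CpG-rich (GC 77.7%, CpG ratio 1.21) and HDAC7 was not (63%, 0.567). This is the reverse of the stretches printed above.

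**Figure D2:**
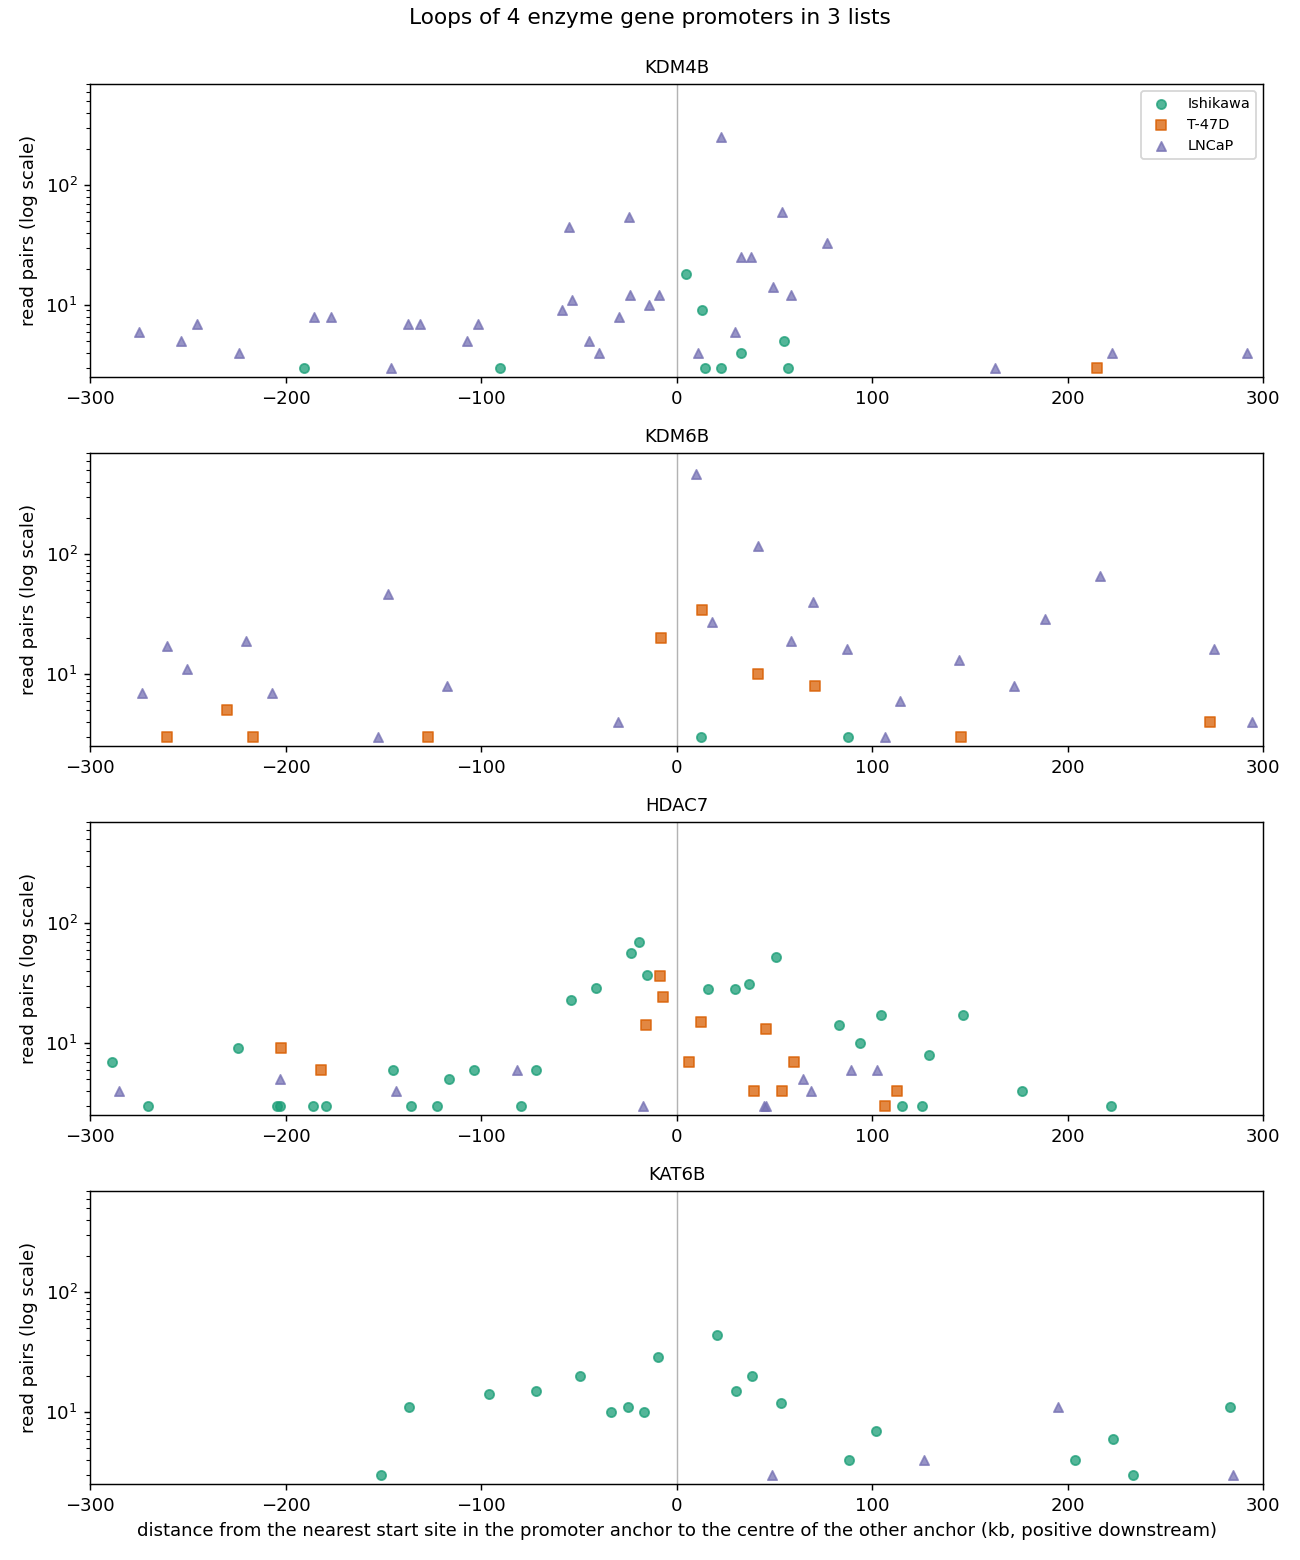
Each symbol is 1 loop of KDM4B, KDM6B, HDAC7 or KAT6B placed by the distance in kb from a start site in its promoter anchor to the centre of the other anchor (positive downstream), with read pairs on a log axis and loops beyond 300 kb not drawn. Read pairs are not scaled to list size. Unscaled, the strongest loops are from LNCaP at KDM4B (253 read pairs) and KDM6B (466), and from Ishikawa at HDAC7 and KAT6B. Scaled to list totals, the Ishikawa to T-47D ratio of all HDAC7 loops was 1.19 (95% interval 0.987 to 1.44).

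A member was taken to differ between lists when its read pairs per 1000000 list read pairs differed at least 4-fold, with counts of 0 set to a floor of 3 read pairs for the list and the higher count above 3. The share of all protein-coding genes above 3 read pairs in either list that differed in the same way is the background. In pooled lists, more contact per cell and more cells with contact cannot be told apart. T-47D exceeded LNCaP for 8 of 45 members (20.7% of genes) and fell below it for 3 (12.5%). Ishikawa exceeded T-47D for 4 of 44 members (13.2%) and fell below it for 20 (41.2%). Ishikawa exceeded LNCaP for 5 of 44 members (25.4%) and fell below it for 20 (37.8%). Thus 17.8% and 6.67% of members differed in the first pair, 9.09% and 45.5% in the second, and 11.4% and 45.5% in the third.

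The balance between higher and lower members depended on the scaling. Over genes with at least 10 read pairs in every list, the median ratio was 1.74 for T-47D over LNCaP, 0.314 for Ishikawa over T-47D and 0.516 for Ishikawa over LNCaP. Relative to that median gene, 4 members were higher and 9 lower in T-47D than in LNCaP (12.6% and 20.5% of genes), 11 higher and 12 lower in Ishikawa than in T-47D (32.1% and 23%), and 7 higher and 15 lower in Ishikawa than in LNCaP (31.8% and 25.6%). Among members that balance turned over in the first pair and came near even in the second. Among all genes it turned over in every pair. For this reason no overall direction is given for any pair. KMT2A, SETDB1, KDM2B and KAT2A were above LNCaP in T-47D by total read pairs and not relative to the median gene. The members with the largest ratios called under both scalings are described next. Some of their promoter anchors also held starts of other genes, so the loops there cannot be assigned to a single gene. These were FAM117A for KAT7 in every list, LETM2 for NSD3 in LNCaP and AP3D1 for DOT1L in Ishikawa and LNCaP. For KAT2A they were DHX58 in T-47D and HSPB9 in LNCaP.

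Between T-47D and LNCaP, HDAC5, HDAC7, KDM7A and HDAC9 were higher in T-47D under both scalings. HDAC5 differed 22.5-fold (95% interval 14.3 to 36.6) and HDAC7 14.2-fold (10.3 to 19.8). KDM7A differed 13.2-fold (5.27 to 37.4), and HDAC9 12-fold with its LNCaP count of 0 set to 3. The HDAC9 value rests on 7 read pairs in 2 T-47D loops, the stronger with 4, so a minimum of 5 per loop leaves no HDAC9 loop in any list. In the other direction KDM4B was 47.2-fold higher in LNCaP (16.1 to 229, on 3 T-47D read pairs), and with the T-47D count of 0 set to 3 read pairs DOT1L was 19.8-fold and HDAC4 6.10-fold higher. Ratios against such a count concern listed read pairs and are no lower bound on contact. Loops within 1 Mb of HDAC5 were themselves 6.50-fold denser in T-47D, which leaves a ratio of 3.46 relative to them. With a 2 kb promoter window the HDAC5 ratio was 3.55. DOT1L and HDAC4 had no T-47D read pairs, so their ratios moved with the floor: with a minimum and floor of 10 read pairs the T-47D to LNCaP ratio was 0.273 for DOT1L and 2.51 for HDAC4, and with 5 it was 0.329 for HDAC4. The HDAC4 difference thus rests on the floor.

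Between Ishikawa and T-47D, KAT6B was 29.8-fold and DOT1L 15.6-fold higher in Ishikawa with their T-47D counts of 0 set to 3. CREBBP was higher 14.6-fold (4.90 to 71.9, on 3 T-47D read pairs) and KDM4B 5.74-fold (1.86 to 28.8, also on 3). KAT2A was 51.3-fold higher in T-47D with its Ishikawa count of 0 set to 3, KDM6B 47.4-fold (21.0 to 132) and KAT7 41.0-fold (18.0 to 115). With only the GENCODE gene start counted, KDM6B and KAT2A had no read pairs in either list and the CREBBP ratio was 3.49. DOT1L was left with a ratio of 2.62 at a minimum of 10 read pairs per loop, and KDM4B with 3.82 relative to loops within 1 Mb. The other 9 members lower in Ishikawa under both scalings were KMT2A, NSD2, NSD3, EZH2, SETDB1, KDM2A, KAT5, KAT6A and HDAC3.

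Between Ishikawa and LNCaP, KAT6B was 19.2-fold higher in Ishikawa (12.6 to 30.4), HDAC7 16.8-fold (12.7 to 22.8), KDM7A 13.9-fold (6.31 to 36.1), HDAC5 6.87-fold and CREBBP 5.94-fold. KDM6B was 99.6-fold higher in LNCaP (45.6 to 272), the largest ratio of any member in any pair, followed in this pair by NSD3 with 27.7-fold (13.3 to 69.5) and KAT7 with 20.1-fold (9.07 to 55.3). HDAC7 lies in a segment of chromosome 12 where all loops within 1 Mb were 9.18-fold denser in Ishikawa, leaving 1.83-fold relative to them, and KAT6B was left with 3.55-fold and HDAC5 with 1.90-fold. Thinned to the depth of the smallest list, KDM7A differed 2.65-fold. At the GENCODE gene start alone HDAC7 differed 1.74-fold. Relative to loops within 1 Mb, KDM6B, NSD3 and KAT7 were 33.9-fold, 30.3-fold and 31.6-fold higher in LNCaP. The other members lower in Ishikawa under both scalings were KMT2C, KMT2E, NSD2, EZH2, KDM2A, KDM4B, KAT2A, KAT2B, KAT6A, HDAC1, HDAC3 and HDAC4.

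**Figure D3:**
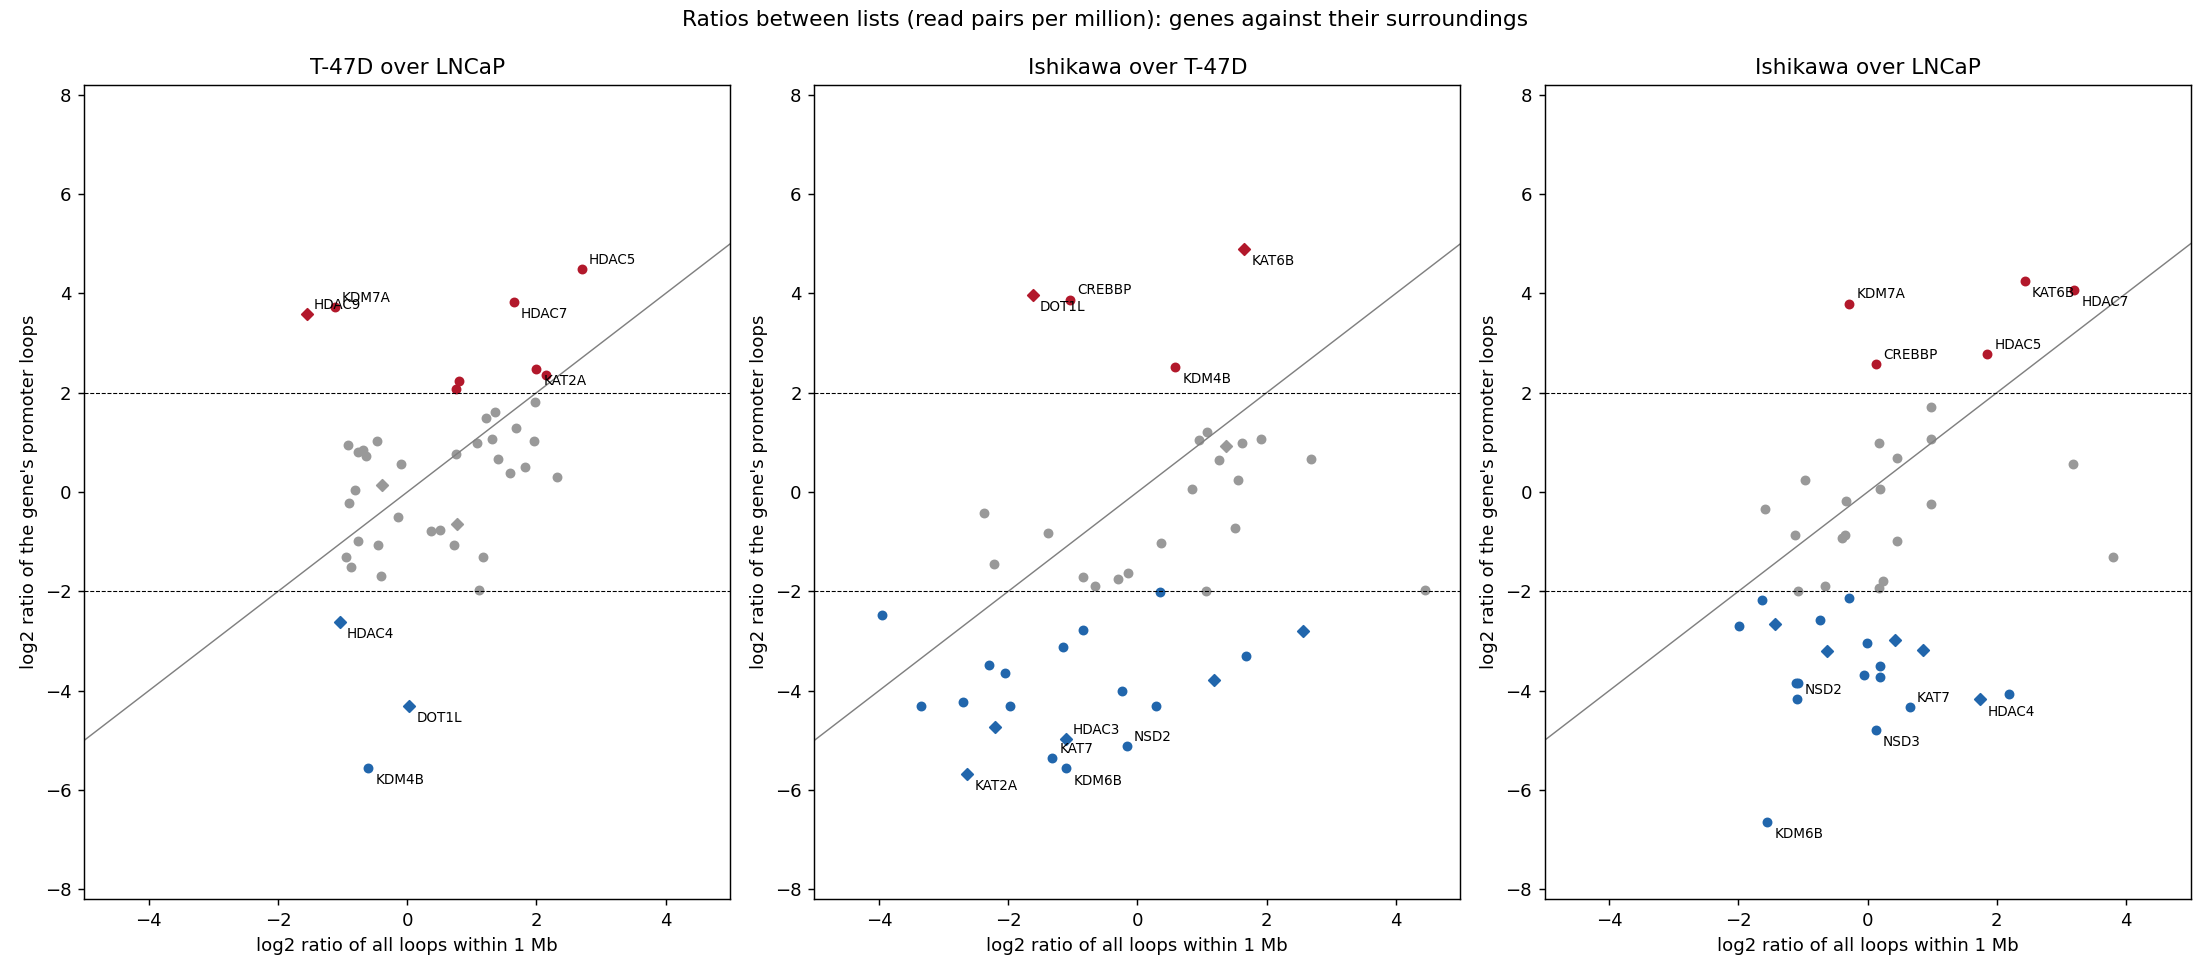
Log2 ratio of each gene's scaled promoter loop read pairs (vertical) against that of all loops within 1 Mb (horizontal) for the 3 pairs of lists, with genes at least 4-fold higher in red, those at least 4-fold lower in blue, and diamonds where 1 list had no read pairs. Dashed lines mark the 4-fold limits and the solid diagonal marks equal ratios. Up to 5 of the largest ratios in each direction are named. In the third panel HDAC7 and KAT6B lie closer to the diagonal than KDM6B and NSD3.

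The split between promoter and distal partners differed more between lists than between members and all genes. Of the read pairs that left a member's own promoter anchors, 68.3% went to distal anchors in Ishikawa, 25.6% in T-47D cells and 40.8% in LNCaP, against 70.4%, 35.4% and 48.7% for all protein-coding genes. The members' share was the lower one in each list. Distal anchors lay at a median distance of 27.1 kb, 65.7 kb and 70.1 kb from the start, against 33.1 kb, 74.0 kb and 106 kb. In LNCaP 31.3% of the members' distal links ended within the gene's own body, against 18.1% of those of all genes, whereas the shares were 33.1% and 30.3% in Ishikawa and 16.7% and 17.0% in T-47D. The members are longer than most genes, and the part of length in the LNCaP share was not tested.

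A RefSeq promoter could be placed for 40 members, and it lay in a promoter anchor for 25 of them in Ishikawa, 30 in T-47D cells and 36 in LNCaP. Among placed members with a loop these were 73.5%, 83.3% and 94.7%. The shares of all placed protein-coding genes with a loop were 75.1%, 90.6% and 91.6%, so the members were near or below them in Ishikawa and T-47D. Of the read pairs of these members, 49.5% in Ishikawa were at the RefSeq promoter, against 81.0% in T-47D and 77.5% in LNCaP. The shares for all protein-coding genes placed in this way were 51.8%, 81.5% and 76.1%. The RefSeq promoter was anchored in all 3 lists for 22 members and in none for NSD1 and HDAC4, and the share of all genes anchored in all 3 was not computed. The RefSeq stretch of HDAC4 lies inside the gene as GENCODE draws it.

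**Figure D4:**
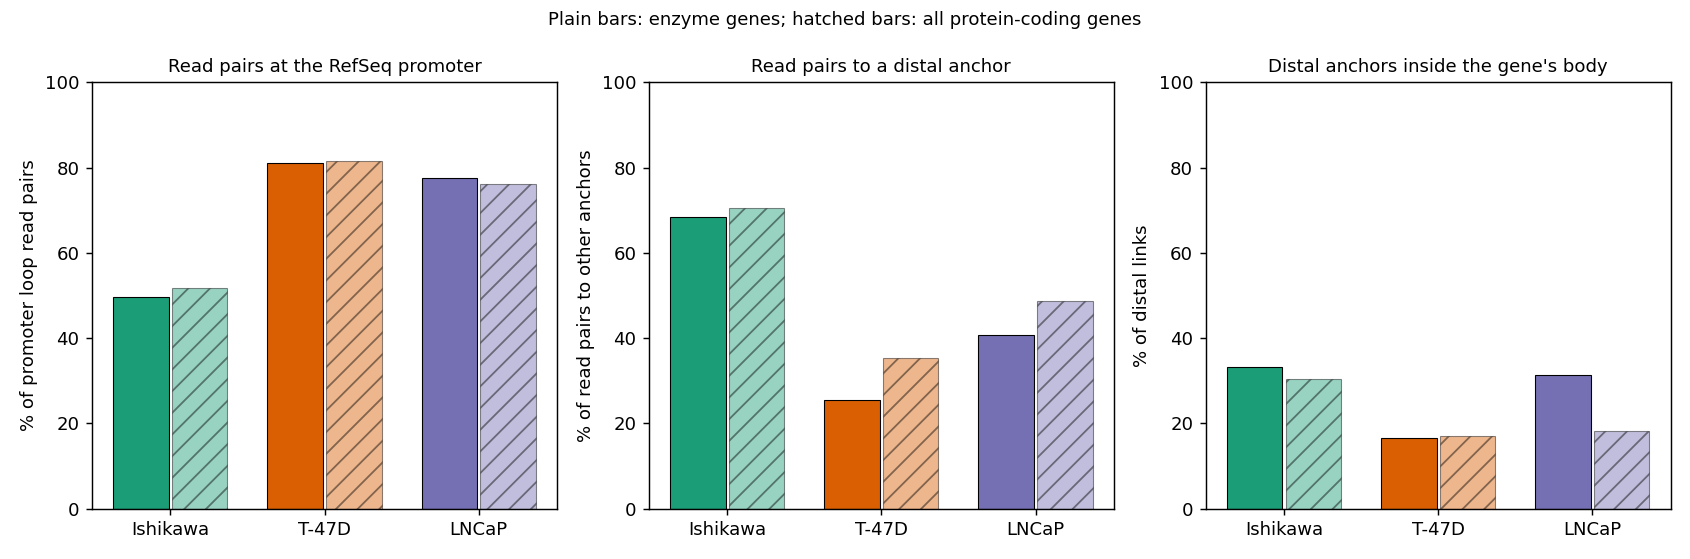
Shares of read pairs at the RefSeq promoter (left), of read pairs to distal anchors (middle) and of distal links ending in the gene's own body (right), in percent, for the enzyme genes (plain bars) and all protein-coding genes (hatched bars) in each list. Plain and hatched bars differ most for links within the gene's body in LNCaP, 31.3% against 18.1%.

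Loops of the members were compared between lists, counting a loop as found when both of its anchors overlapped those of a loop there. Of the T-47D member loops 59.9% were found in LNCaP (95% Wilson interval 54.4 to 65.2), against 45.9% of all T-47D promoter loops. In the reverse direction it was 25.2% (22.4 to 28.4) against 15.6%. Ishikawa member loops were found in LNCaP for 17.4% (13.7 to 21.7, against 10.9%) and in T-47D for 11.5% (8.51 to 15.3, against 5.40%). T-47D and LNCaP member loops were found in Ishikawa for 14.1% and 8.46%, against 10.3% and 7.37% of all promoter loops. The Wilson intervals treat loops as independent, but loops of 1 gene often share a promoter anchor. They therefore do not measure the spread between genes, and no difference from all promoter loops was tested. These shares depended on the overlap required: when at least 50% of both anchors had to overlap, 18.6% of T-47D member loops were found in LNCaP against 20.3% of all, so the members' share was no longer the higher one. Under that rule the reverse share was 7.96% against 7.20%, and 0.294% of Ishikawa member loops were found in T-47D against 0.328%. Ishikawa member loops were found in LNCaP for 2.94% against 1.64%, and LNCaP ones in Ishikawa for 1.24% against 0.997%. T-47D member loops were found in Ishikawa for 0.321% against 0.569%. Which share was higher thus differed between the pairs of lists. Among member loops, those between promoters recurred more than distal ones. In T-47D 71.7% of the former and 50% of the latter were found in another list, in LNCaP 40.9% and 15.1%, and in Ishikawa 31.5% and 12.4%. Member loops found in both other lists numbered 31 in Ishikawa, 26 in T-47D cells and 33 in LNCaP. They came from 12, 11 and 13 members, among them SETD1B, KMT2D, EHMT1, KAT8, KDM6B and HDAC7. Neither the split by partner nor these counts were computed for the loops of all genes, so they do not set the members apart.

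Only 2 pairs of enzyme genes were joined directly, and no anchor held the promoters of 2 members. SETD1A and KAT8 on chromosome 16 were joined by loops spanning 136 to 173 kb, with 3 read pairs in Ishikawa, 3 in T-47D cells and 16 in LNCaP. SETD1B and KDM2B on chromosome 12 were joined by 3 read pairs in T-47D and 18 in LNCaP. Both pairs also had at least 1 distal anchor in common in the same lists.

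A search for the palindromes of the estrogen response element (GGTCANNNTGACC) and the androgen response element (GNACANNNTGTNC), each the same on both strands, found few matches. The estrogen motif had 0 matches in 177 distal anchors of the members in Ishikawa, 1 in 75 in T-47D and 1 in 266 in LNCaP. These are 0, 4.92 and 0.944 per Mb, and the rates for distal anchors of all protein-coding genes were 1.02, 2.73 and 0.740 per Mb. The androgen motif had 12, 1 and 24 matches, or 11.1, 4.92 and 22.7 per Mb, against 13.7, 18.2 and 21.5 per Mb. In 2 kb windows at the anchor centres, the androgen motif was in 3.95%, 0% and 5.26% of member windows and in 2.83%, 3.50% and 4.87% of all such windows, and the estrogen motif in 0%, 1.33% and 0.376% of member windows and 0.249%, 0.62% and 0.161% of all windows. The numbers are too small to set the members apart.

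The 2 estrogen motif matches and the androgen motif match with the most read pairs are printed with 20 bases on either side on the plus strand of GRCh37, motif in capitals. The EZH1 match (chr17:40780223-40780275) lay in a T-47D anchor with 5 read pairs, the EP300 match (chr22:41517499-41517551) in an LNCaP anchor with 5 read pairs inside the gene, and the EHMT1 match (chr9:140524930-140524982) in an LNCaP anchor with 96 read pairs inside the gene.
EZH1: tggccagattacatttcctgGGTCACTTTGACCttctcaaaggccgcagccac
EP300: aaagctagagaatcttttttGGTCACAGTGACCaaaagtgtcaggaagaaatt
EHMT1: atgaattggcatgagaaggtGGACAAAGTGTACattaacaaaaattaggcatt
A match describes the letters only, and binding was not measured here.

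A list of 30 genes for partner subunits and readers of the same marks had a loop for 27 genes in Ishikawa, 26 in T-47D cells and 29 in LNCaP. BRD2, a reader of acetylated histones, had the most read pairs in T-47D (194) and LNCaP (842), and MTA1, a subunit of the NuRD deacetylase complex, in Ishikawa (142). The next were TRRAP in Ishikawa (129), MTA1 in T-47D (121) and NCOR1 in LNCaP (633). Of the 30 genes, 2 were higher and 4 lower in T-47D than in LNCaP, 3 higher and 15 lower in Ishikawa than in T-47D, and 2 higher and 17 lower in Ishikawa than in LNCaP. The shares of all genes called in the same order were 20.7% and 12.5%, 13.2% and 41.2%, and 25.4% and 37.8%. These calls were made on values scaled to list totals, and their counts under the scaling by the median gene were not computed.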

How the data were processed

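The deposited files hold counts: per loop, the number of read pairs joining 2 anchors, given by the authors as 1 list per cell line that is not split by sample. The Ishikawa list is in 4 sorted parts. Per the labels and the study's methods, the authors aligned reads to hg19 with HiC-Pro, called loops with hichipper and removed loops with fewer than 3 read pairs or a high false discovery rate. Rows joining an anchor to itself were set aside, and repeated Ishikawa rows were summed. Start sites came from GENCODE release 44 lifted to GRCh37, with a window of 500 bp. Read pairs per gene were scaled to 1000000 read pairs per list, with a floor of 3 read pairs and a ratio of 4 as the limit. Intervals for ratios are exact binomial intervals and shares have Wilson intervals, both at 95%. Promoter sequences are from RefSeq (GRCh38.p14), matched exactly to GRCh37. Python 3.11.15, NumPy 2.4.6 and SciPy 1.17.1 were used, and the counting was tested on simulated loops.

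Named genes were the 5 members with most read pairs in each list, the 3 called members with the largest ratio in each direction per pair, the 3 strongest distal loops per list, every pair of joined members, and the 2 partner genes with most read pairs per list. The other members are accounted for by their read pairs. The members and lists were chosen with earlier results of these data known. Alternatives were a minimum of 5 or 10 read pairs, a 2 kb window, 1 start site per gene, start sites of protein-coding transcripts, thinning to the smallest list, spans of 20 kb to 1 Mb, Ishikawa loops in 2 or more parts, leaving out each Ishikawa part, scaling by the median gene, a ratio of 2, ratios relative to loops within 1 Mb, and an anchor overlap of 50%.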

Additional observations from a re-analysis of the deposited data

Results flagged for a closer look

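Read pairs that join a promoter anchor of the enzyme genes to itself were in no comparison above. They summed to 828 in Ishikawa, over 42 of 77 promoter anchors, and to 1037 in T-47D, over 46 of 53 promoter anchors. The median per anchor was 3 in Ishikawa and 14 in T-47D, against 3 and 11 for all protein-coding promoter anchors. The LNCaP list has no such rows.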

How the results depend on the processing

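No paired analysis was possible because each list pools its samples, so no replicate numbers remain in the values. Of the alternatives to the counts, percentiles and shares, 179 values stayed within the limits set for them and 47 moved. Leaving out each Ishikawa part in turn moved none of these counts and shares beyond those limits. The ratios were less steady. Of the alternatives to the 18 ratios checked, 149 values stayed within the counting interval of the main ratio, 72 moved outside it and 1 reversed direction.

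With a minimum of 10 read pairs, loops were left for 22 members in Ishikawa and 23 in T-47D, and distal anchors for 19 in Ishikawa, 9 in T-47D (22 with a minimum of 5) and 25 in LNCaP. Thinning LNCaP to the smallest list also left 25. The median percentile was 36.4 in Ishikawa and 59.2 in T-47D at a minimum of 10, and 60.1 in Ishikawa with 1 start site per gene.

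Members higher in T-47D than in LNCaP numbered 4 when scaled by the median gene, 15 at a ratio of 2 and 4 relative to loops within 1 Mb. Those lower numbered 9, 11 and 5 under the same choices and 1 at a minimum of 10. Members higher in Ishikawa than in T-47D numbered 2 at a minimum of 10, 11 when scaled by the median gene and 7 at a ratio of 2, and those lower 12 under each of the first 2. Members higher in Ishikawa than in LNCaP numbered 3 for spans of 20 kb to 1 Mb and 2 relative to loops within 1 Mb, and those lower 12 at a minimum of 10. The HDAC4 ratio of T-47D to LNCaP came out as 2.51 at a minimum of 10, because its T-47D count of 0 was set to a floor of 10, so no direction can be read from that value.

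With 50% anchor overlap the share found was 0.294% for Ishikawa in T-47D, 2.94% for Ishikawa in LNCaP, 0.321% for T-47D in Ishikawa, 18.6% for T-47D in LNCaP, 1.24% for LNCaP in Ishikawa and 7.96% for LNCaP in T-47D. Thinned to the smallest list, it was 15.5% for Ishikawa in T-47D, 9.48% for Ishikawa in LNCaP, 7.37% for T-47D in Ishikawa, 27.6% for T-47D in LNCaP and 45.3% for LNCaP in T-47D. At a minimum of 10 it was 5.62% for Ishikawa in T-47D, 12.4% for Ishikawa in LNCaP, 6.19% for LNCaP in Ishikawa and 16.4% for LNCaP in T-47D (21.4% at 5). With 1 start site per gene it was 23.3% for Ishikawa in LNCaP, 9.38% for T-47D in Ishikawa and 30.9% for LNCaP in T-47D. With Ishikawa loops in 2 or more parts it was 8.33% for T-47D and 4.73% for LNCaP in Ishikawa, and with spans of 20 kb to 1 Mb 6.10% for LNCaP in Ishikawa. The causes were not tested. A loop below 3 read pairs is in no list, and neither is one removed for its false discovery rate, so a 0 does not show absence.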
